A study of Homo sapiens with 12 samples.

Results

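Genes of the constitutive proteasome were followed in NB4 cells, an established human acute promyelocytic leukemia line, before and after 96 hours of 0.5 uM all-trans retinoic acid (ATRA), which drives these cells toward granulocytes. The set was chosen by gene name and held 37 genes: the 14 subunits of the 20S core (PSMA1 to PSMA7 and PSMB1 to PSMB7), 20 genes of the 19S cap (the PSMC and PSMD genes), the activators PSME3 and PSME4, and the maturation factor POMP. Of these, 34 were measured among 18404 genes in all, with the core complete (14 of 14) and 17 of 20 cap genes. PSMC5, PSMD7 and PSMD13 are named by no probe set of the annotation and were not analysed here. Each gene was read from its brightest probe set on average that names 1 gene.

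The proteasome is the large protease that degrades proteins marked with ubiquitin. Its core is a barrel of outer alpha rings, which gate the entrance, around inner beta rings, which carry the catalytic sites. The cap that docks on the core holds a ring of ATPases, which unfold the substrate, and non-ATPase subunits, which bind ubiquitin chains, cut them off or form the lid. Promyelocytic leukemia cells are known in the clinic for a fusion of PML and RARA that is degraded by the proteasome under ATRA, and proteasome inhibitors are used against other blood cancers.

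Total RNA was hybridised to 12 Affymetrix ST arrays, 3 in each of 4 groups. The control groups joined wild type NB4 (1 array per state) to cells carrying scrambled shRNA (2 arrays per state). Knockdown cells carried shRNA1, 2 arrays per state, or shRNA2, 1 array per state, both directed against the long noncoding RNA HOTAIRM1. All shRNA cells were stable lentiviral lines, sorted for GFP and grown from single cells. Wild type cells had neither vector nor cloning, and shRNA2 is a single line, so a difference between clones and an effect of the knockdown cannot be told apart. The HOTAIRM1 level was not analysed here, since the annotation names no probe set for it, and the knockdown was taken from the labels. The labels call the duplicates biological without saying whether they came from separate clones, and the p values measure the spread between these samples. Below, control values stand in the order wild type, scrambled replicate 1, scrambled replicate 2, and knockdown values in the order shRNA1 replicate 1, shRNA1 replicate 2, shRNA2.

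Markers of the labelled cell type were checked on the log2 signal scale. Of 6 measured promyelocyte genes, MPO (12.67 to 13.81) and PRTN3 (11.55 to 13.49) were bright on every array. The means of the 4 groups ran from 10.20 to 10.68 for AZU1, 8.93 to 9.12 for ELANE, 8.49 to 9.91 for CEBPE and 7.89 to 10.51 for CTSG. Of 5 measured markers of other cell types, CD3E and MS4A1, of T and B cells, and the globin HBB lay at 6.19 to 6.75, 5.27 to 5.81 and 6.59 to 6.98, and the group means of COL1A1 and EPCAM at 8.43 to 8.70 and 7.20 to 8.06. Levels of different probe sets are not comparable, so these signals do not identify the cells by themselves. The 3 maturation genes ITGAM, CYBB and FCGR2A rose with ATRA in control and in knockdown cells (3 of 3 each). The untreated array of scrambled replicate 2 stood apart, with an ITGAM signal of 10.16 against 7.31 to 8.56 on the other 5 untreated arrays, and values without it are given for the member count and for the inducible subunits. The number of arrays limits the precision of every value.

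Most of the proteasome was lower after ATRA in both kinds of cells. In control cells 24 of 34 members fell and 0 rose, and in knockdown cells 23 fell and 0 rose (limma, Benjamini-Hochberg adjusted p under 0.05 over all 18404 genes). Of all genes, 20.9% were called lower and 15.2% higher in control cells, and 14.7% lower and 10.1% higher in knockdown cells. Among the 6717 genes at least as bright as the dimmest member, 41.7% fell in control and 28.4% in knockdown cells. The median member changed by -0.49 on the log2 scale in control cells and by -0.49 in knockdown cells, against 0.05 and -0.03 for all genes. The same 20 members fell in both kinds of cells, which is 20 of the 24 called in control and 20 of the 23 called in knockdown cells. The share of all genes called lower in both was not counted, so this overlap has no background beside it. PSMA5, PSMB4, PSMD10 and PSME3 were called in control cells alone, PSMA1, PSMC4 and POMP in knockdown cells alone, and PSMA2, PSMA3, PSMA4, PSMA6, PSMB3, PSMC2 and PSMD4 in neither. For 26 members all 3 control arrays with ATRA lay below all 3 without it, as they did for 23.4% of all genes. In knockdown cells this held for 30 members and 24.6% of all genes. In these bulk samples, fewer cells of a type and less RNA per cell cannot be told apart.

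**Figure D1:**
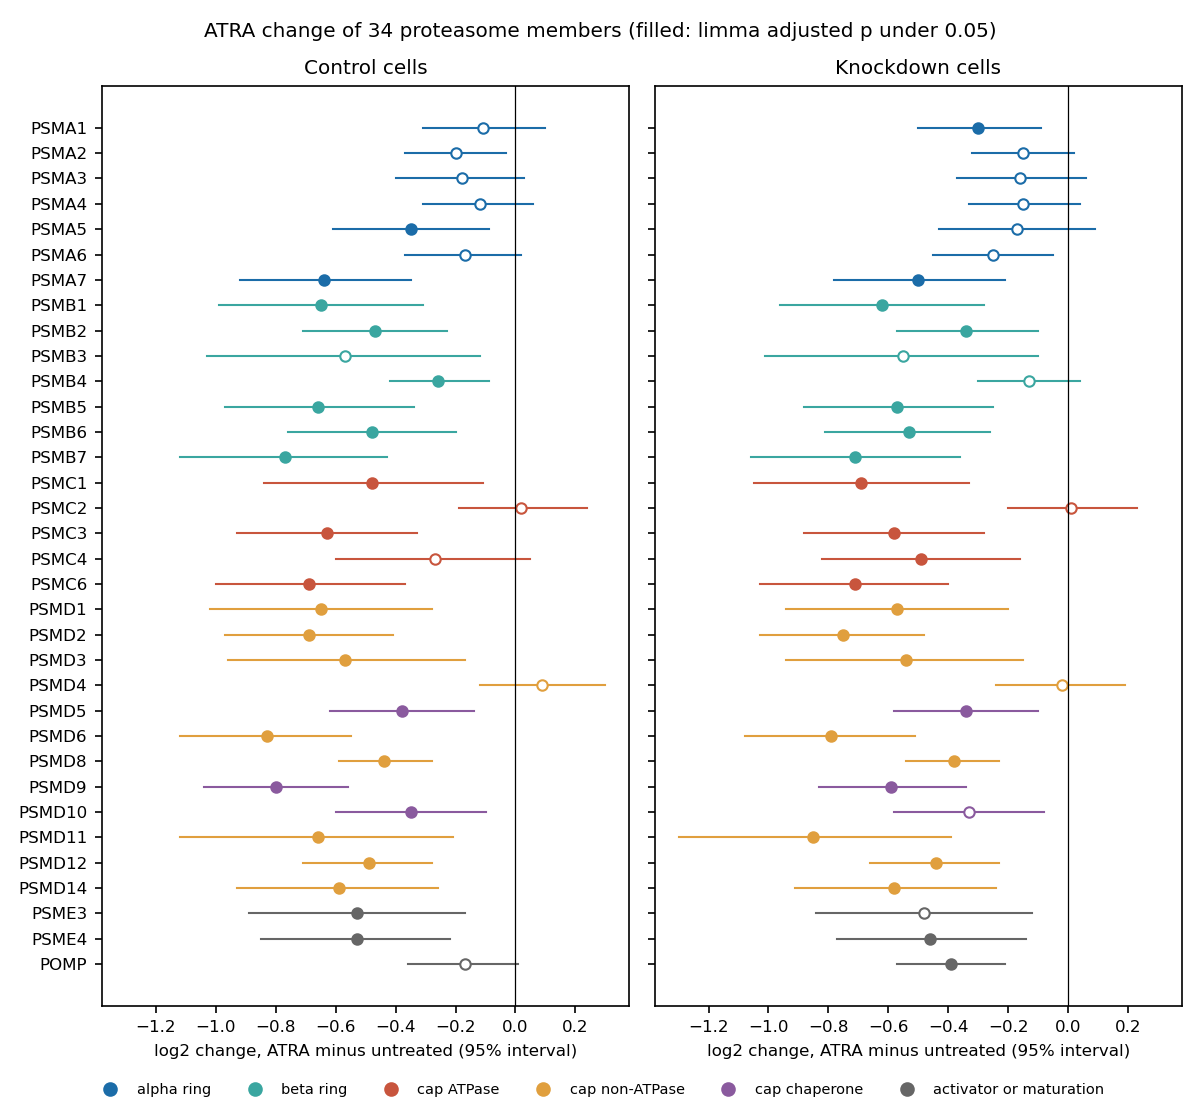
Log2 change under ATRA (horizontal axis) of each of the 34 measured members (rows) in control and knockdown cells, with 95% intervals from limma; colour gives the role and a filled point an adjusted p under 0.05. The cap holds 14 filled points of 17 in each panel, while 5 of 7 alpha ring points are open in each panel.

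The number of calls changed when single lines were left out, for the members and for all genes. The members lost a larger share of their calls than all genes did wherever wild type or shRNA2 arrays were left out below. Genes as bright as the members were not counted under these settings. The wild type array with ATRA was the lowest of the 6 ATRA arrays for 23 of 34 members, against 20.8% of all genes, and the untreated shRNA2 array was the highest of the 6 untreated arrays for 21 of 34, against 26.0% of all genes. Without the wild type ATRA array 15 members were called in control cells, without the wild type untreated array 15, and without both 9. Of all genes, 3315, 2977 and 2477 were then called lower, against 3844 with all arrays. PSMA5, PSMB4, PSMC1, PSMD3, PSMD5, PSMD10, PSMD11, PSME3 and PSME4 did not pass in control cells when either wild type array was left out. Without both shRNA2 arrays 10 members were called in knockdown cells, without its untreated array 12, and without the ATRA array of shRNA1 replicate 1 14. Of all genes, 1338, 2082 and 2045 were then called lower, against 2714 with all arrays. PSMA1, PSMA7, PSMB1, PSMB2, PSMC1, PSMC4, PSMD1, PSMD3, PSMD5, PSMD11, PSMD12, PSMD14 and PSME4 did not pass in knockdown cells without both shRNA2 arrays. Leaving out the untreated array of scrambled replicate 2 gave 22 calls in control cells. Quantile normalization across the arrays gave 14 calls in control cells and 19 in knockdown cells, with 3037 and 2505 of all genes called lower. Direction varied less, with 30 to 33 of 34 members negative in each of the 6 lines when untreated and ATRA arrays were matched by line. The medians of all genes by line ran from -0.07 to 0.07. By group means, 43.1% of all genes were negative in control and 56.9% in knockdown cells.

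PSMB5, PSMB6, PSMB7, PSMD2, PSMD6, PSMD8 and PSMD9 kept their calls in both kinds of cells under every alternative processing and left-out array that was run. PSMA7 and PSMD12 did so in control cells alone, and PSMC3, PSMC6 and POMP in knockdown cells alone. The 250 bases before the start of 3 of these falling genes and of PSMA2, a gene called in neither kind of cells, are shown because the members moved together and the sequences let their promoters be set side by side. They are from RefSeq (GRCh38.p14), 5′ to 3′ on the gene's strand. PSMD9 is at chr12:121888540-121888789 on the plus strand, PSMD8 at chr19:38374321-38374570 on the plus strand, PSMB5 at chr14:23035221-23035470 on the minus strand, and PSMA2 at chr7:42932175-42932424 on the minus strand. Each window ends at the gene's annotated 5′ end. Capitals mark matches on either strand to 3 motifs, namely TGACNNNGC, the antioxidant response element that NFE2L1 and NFE2L2 bind, CCGGAAG, a core of ETS factor sites, and CCAAT, the box bound by NF-Y.
PSMD9: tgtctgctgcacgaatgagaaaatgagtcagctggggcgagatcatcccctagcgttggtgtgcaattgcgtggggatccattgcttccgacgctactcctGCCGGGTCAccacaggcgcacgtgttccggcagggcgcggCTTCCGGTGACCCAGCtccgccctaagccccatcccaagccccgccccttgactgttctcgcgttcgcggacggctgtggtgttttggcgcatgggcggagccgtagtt
PSMD8: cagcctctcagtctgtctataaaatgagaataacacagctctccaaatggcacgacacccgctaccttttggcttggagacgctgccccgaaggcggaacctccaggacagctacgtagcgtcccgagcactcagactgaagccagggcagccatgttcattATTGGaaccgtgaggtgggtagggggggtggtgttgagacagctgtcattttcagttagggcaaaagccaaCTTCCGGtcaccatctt
PSMB5: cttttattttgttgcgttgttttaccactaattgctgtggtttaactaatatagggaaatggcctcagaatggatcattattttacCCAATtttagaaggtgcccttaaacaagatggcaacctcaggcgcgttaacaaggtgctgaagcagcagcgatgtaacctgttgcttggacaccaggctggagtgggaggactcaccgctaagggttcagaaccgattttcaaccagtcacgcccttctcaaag
PSMA2: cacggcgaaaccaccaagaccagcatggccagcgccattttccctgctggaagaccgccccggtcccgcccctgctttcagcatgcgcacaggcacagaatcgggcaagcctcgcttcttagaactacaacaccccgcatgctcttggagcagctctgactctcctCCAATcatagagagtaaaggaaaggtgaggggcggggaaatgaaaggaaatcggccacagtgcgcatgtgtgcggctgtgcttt

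The PSMD9 window held 2 antioxidant response element matches and 1 ETS core match, which adjoins the second of them within 1 run of capitals. PSMD8 had 1 ETS core and 1 CCAAT match, while PSMB5 and PSMA2 had 1 CCAAT match each. Windows of 300 bases, which run 50 bases past the start, were on hand for 32 of 37 members (38 windows, since some genes have several starts). TGACNNNGC occurred in 10 of the 38 (26.3%), against 13.3% of 35116 windows of all genes. CCGGAAG occurred in 13 of 38 (34.2%), against 10.3%, and CCAAT in 17 of 38 (44.7%), against 34.6%. Members called in neither kind of cells had matches too: PSMA4 and PSMB3 to TGACNNNGC, and PSMA6 and PSMC2 to CCGGAAG. Of the genes that were not measured, PSMC5 had TGACNNNGC, and PSMD7 and PSMD13 had CCGGAAG. A relation between motif and ATRA change was not tested. These matches are letters in a window and were not tested for binding.

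The 3 catalytic subunits fell in both kinds of cells. PSMB5, which carries the chymotrypsin-like site that clinical inhibitors block, had log2 signals of 10.61, 10.67 and 10.38 in untreated control cells and of 9.91, 9.94 and 9.85 after ATRA. In knockdown cells its signals were 10.46, 10.56 and 11.10 untreated and 10.12, 10.07 and 10.23 with ATRA. No ATRA array reached an untreated one in either kind of cells, and untreated shRNA2 was the highest of all 12. The change was -0.66 in control cells (SE 0.14, adjusted p = 0.0045), to 63.5% of the untreated signal, and -0.57 in knockdown cells (SE 0.14, adjusted p = 0.0131), to 67.5%.

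PSMB6, the caspase-like subunit, went from 12.17, 12.37 and 11.97 to 11.80, 11.70 and 11.56 in control cells. It went from 12.03, 12.14 and 12.35 to 11.45, 11.68 and 11.80 in knockdown cells, again without overlap. The changes were -0.48 (SE 0.13, adjusted p = 0.0125) and -0.53 (SE 0.13, adjusted p = 0.0096). PSMB7, the trypsin-like subunit, had the largest fall of the core, from 11.47, 11.39 and 11.33 to 10.42, 10.73 and 10.71 in control cells. Its signals in knockdown cells were 11.30, 11.36 and 12.01 before and 10.80, 10.83 and 10.92 after. Wild type ATRA was the lowest and untreated shRNA2 the highest of the 12 arrays. The changes were -0.77 (SE 0.16, adjusted p = 0.0031), to 58.5% of the untreated signal, and -0.71 (SE 0.16, adjusted p = 0.0070). Without wild type arrays the control changes of PSMB5, PSMB6 and PSMB7 were -0.63, -0.54 and -0.64, with adjusted p of 0.0458, 0.0482 and 0.0479.

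The 4 other beta subunits are structural parts of the same ring. PSMB1 fell by 0.65 on the log2 scale in control and by 0.62 in knockdown cells, and PSMB2 fell by 0.47 and by 0.34. PSMB3 had changes of -0.57 and -0.55 with adjusted p of 0.0505 and 0.0765, and its 95% intervals ran from -1.03 to -0.12 and from -1.01 to -0.10. Its control change was -0.32 (adjusted p = 0.184) once wild type ATRA was left out and -0.21 (adjusted p = 0.433) with neither wild type array. PSMB4 had the smallest change of the ring, with signals of 11.78, 11.70 and 11.73 in untreated control cells and 11.40, 11.57 and 11.46 after ATRA. That fall of 0.26 passed (SE 0.08, adjusted p = 0.0216), with the wild type ATRA array the lowest of the 12. In knockdown cells PSMB4 read 11.60, 11.79 and 11.81 before and 11.60, 11.62 and 11.58 after, and the change of -0.13 did not pass (adjusted p = 0.265). In all, 6 of 7 beta subunits fell in control and 5 of 7 in knockdown cells, with medians of -0.57 and -0.55.

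**Figure D2:**
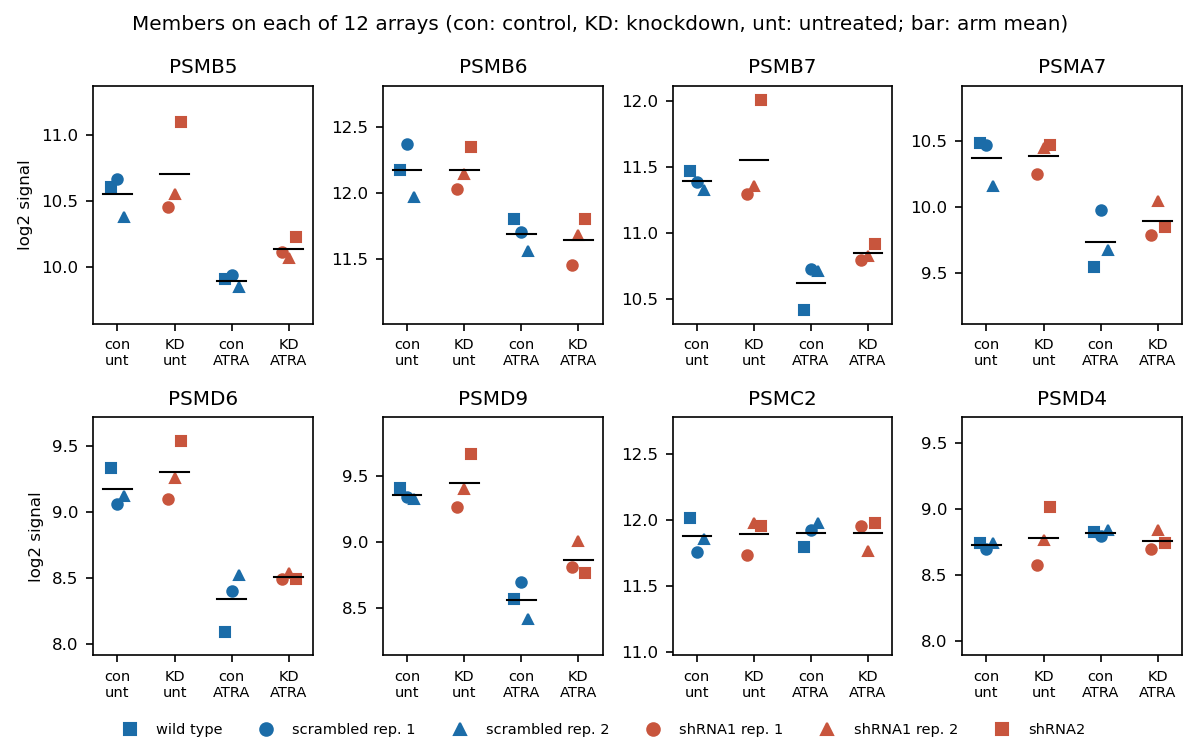
Log2 signal (vertical axis, the same span in each panel) of 8 members on each of the 12 arrays, by group; symbols give the line and bars the mean of 3 arrays. For the 3 catalytic subunits, PSMA7, PSMD6 and PSMD9 every ATRA array lies below every untreated array of the same kind of cells, while PSMC2 overlaps in both kinds of cells and PSMD4 in knockdown cells.

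The alpha ring moved less. Only 2 of 7 alpha subunits fell in either kind of cells, with medians of -0.18 in control and -0.17 in knockdown cells. All 7 values were negative in both, against 43.1% of all genes in control and 56.9% in knockdown cells. PSMA7 was the exception, with signals of 10.49, 10.47 and 10.16 in untreated and 9.55, 9.98 and 9.68 in ATRA-treated control cells. In knockdown cells PSMA7 had 10.25, 10.45 and 10.47 before and 9.79, 10.05 and 9.85 after. The groups did not overlap, and the changes were -0.64 (SE 0.13, adjusted p = 0.0029) and -0.50 (SE 0.13, adjusted p = 0.0148). Without shRNA2 arrays the latter was -0.43 with an adjusted p of 0.134. PSMA5 fell by 0.35 in control cells (adjusted p = 0.0395) and changed by -0.17 in knockdown cells (adjusted p = 0.360).

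PSMA1 gave the opposite split. Its control signals of 12.06, 11.99 and 11.75 before ATRA overlapped with 11.87, 11.73 and 11.88 after it, a change of -0.11 (SE 0.09, adjusted p = 0.386). In knockdown cells 11.97, 12.14 and 12.09 became 11.76, 11.68 and 11.86, a fall of 0.30 (SE 0.09, adjusted p = 0.0359). Without shRNA2 arrays that change was -0.33 and did not pass (adjusted p = 0.106). With all arrays the difference between the control and knockdown changes, -0.19, did not pass (95% interval -0.48 to 0.10, adjusted p = 0.471). PSMA2, PSMA3, PSMA4 and PSMA6 had changes between -0.20 and -0.12 in control and between -0.25 and -0.15 in knockdown cells, with adjusted p of 0.064 or more. The 95% intervals of these 4 did not go below -0.45 in either kind of cells.

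In the cap 14 of 17 measured genes fell in each kind of cells, with a median of -0.57 in both. Without wild type arrays 5 of 17 were called in control cells, with a median of -0.35, and after quantile normalization 8. Without shRNA2 arrays 6 of 17 were called in knockdown cells, with a median of -0.48. Among the 5 measured ATPases, which form the unfolding ring, 3 fell in control and 4 in knockdown cells. PSMC6 had the largest change of them, from 10.05, 9.78 and 9.76 to 8.94, 9.24 and 9.36 in control cells and from 9.78, 9.99 and 10.35 to 9.30, 9.35 and 9.32 in knockdown cells. No ATRA array overlapped an untreated one, with changes of -0.69 (SE 0.14, adjusted p = 0.0035) and -0.71 (SE 0.14, adjusted p = 0.0038). The probe set behind these PSMC6 values lies in number order among probe sets of another chromosome (19 of its 20 nearest) than the one RefSeq gives for the gene and is uncertain as to the gene. A second probe set, with 20 of 20 neighbours on the gene's own chromosome, gave -0.63 (adjusted p = 0.00246) and -0.52 (adjusted p = 0.00917).

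PSMC1 has only a probe set of the first kind, with 20 of 20 neighbours on another chromosome, and its falls of 0.48 and 0.69 are uncertain as to the gene. PSMC3 fell by 0.63 and by 0.58. PSMC4 changed by -0.27 in control cells (adjusted p = 0.170) and fell by 0.49 in knockdown cells (adjusted p = 0.0320), and the difference of -0.22 did not pass (95% interval -0.68 to 0.25). Without shRNA2 arrays its knockdown change was -0.37 and did not pass (adjusted p = 0.214). PSMC2 did not move with the others, at 12.02, 11.76 and 11.86 before and 11.80, 11.93 and 11.98 after ATRA in control cells. In knockdown cells PSMC2 read 11.74, 11.98 and 11.96 before and 11.96, 11.77 and 11.98 after. Its groups overlapped fully, and the intervals of its change, -0.19 to 0.24 and -0.20 to 0.23, left out a fall of the size seen for the median cap gene.

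The non-ATPase subunits fell in 8 of 9 measured genes in each kind of cells, with medians of -0.59 and -0.57. PSMD6, a lid subunit, had the largest control change of all members, from 9.33, 9.06 and 9.12 to 8.09, 8.40 and 8.52. In knockdown cells it went from 9.10, 9.26 and 9.54 to 8.49, 8.54 and 8.49. The groups stood clear of each other, wild type ATRA was again lowest, and the changes were -0.83 (SE 0.13, adjusted p = 0.000594), to 56.1% of the untreated signal, and -0.79 (SE 0.13, adjusted p = 0.0013), to 57.7%. PSMD12, another lid subunit, read 10.02, 9.77 and 9.73 before and 9.23, 9.38 and 9.42 after ATRA in control cells. Its knockdown signals were 9.91, 10.08 and 10.10 before and 9.66, 9.47 and 9.64 after, and the falls were 0.49 and 0.44.

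The scaffold subunit PSMD2 fell by 0.69 and by 0.75, and its partner PSMD1 by 0.65 and by 0.57. With wild type ATRA left out the control change of PSMD1 was -0.41 (adjusted p = 0.0144). PSMD11, a lid subunit, had the largest change in knockdown cells, -0.85 (SE 0.21, adjusted p = 0.0113), and fell by 0.66 in control cells. Without wild type arrays the latter was -0.28 with an adjusted p of 0.301, and without shRNA2 arrays the former was -0.63 with an adjusted p of 0.130. PSMD14, the deubiquitinase of the lid, fell by 0.59 and by 0.58, PSMD3 by 0.57 and by 0.54, and PSMD8 by 0.44 and by 0.38. With wild type ATRA left out PSMD3 changed by -0.34 in control cells (adjusted p = 0.0943), and by -0.18 (adjusted p = 0.249) with neither wild type array. PSMD8 had the smallest standard error of the members, 0.07, and adjusted p of 0.000747 and 0.00243.

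PSMD4, a ubiquitin receptor of the cap, was the exception. It read 8.74, 8.69 and 8.74 in untreated and 8.82, 8.79 and 8.84 in ATRA-treated control cells, and 8.57, 8.76 and 9.01 and then 8.69, 8.84 and 8.74 in knockdown cells. The control arrays with ATRA all lay slightly above those without, the knockdown arrays overlapped, and the changes of 0.09 and -0.02 did not pass (adjusted p = 0.490 and 0.902).

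The cap assembly chaperones PSMD5, PSMD9 and PSMD10 guide the ATPase ring together and are not part of the finished cap. PSMD9 fell from 9.41, 9.34 and 9.33 to 8.57, 8.70 and 8.42 in control cells and from 9.27, 9.40 and 9.67 to 8.81, 9.01 and 8.77 in knockdown cells. Its changes were -0.80 (SE 0.11, adjusted p = 0.000288), the smallest adjusted p of the members in control cells, and -0.59 (SE 0.11, adjusted p = 0.0027). PSMD10 read 11.80, 11.67 and 11.66 before and 11.18, 11.26 and 11.64 after ATRA in control cells, and 11.77, 11.70 and 11.91 before and 11.42, 11.40 and 11.57 after in knockdown cells. Scrambled replicate 2 barely moved, and the control fall of 0.35 passed (adjusted p = 0.0321) while the knockdown change of -0.33 did not (adjusted p = 0.0524). PSMD5 fell by 0.38 and by 0.34.

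POMP, which carries beta subunits into the maturing core, read 12.51, 12.65 and 12.43 before and 12.40, 12.30 and 12.37 after ATRA in control cells. In knockdown cells POMP went from 12.43, 12.61 and 12.53 to 12.05, 12.10 and 12.25. The change of -0.17 in control cells did not pass (adjusted p = 0.128), and the fall of 0.39 in knockdown cells did (SE 0.08, adjusted p = 0.0056). PSME3, an alternative activator found in the nucleus, read 12.11, 11.70 and 11.82 before and 10.89, 11.60 and 11.54 after in control cells, so that 1 array, wild type with ATRA, lay far below the rest. Its knockdown signals were 11.90, 12.03 and 12.05 before and 11.46, 11.58 and 11.48 after. The control fall of 0.53 passed (adjusted p = 0.0267), but the change was -0.30 (adjusted p = 0.0689) when that array was left out and -0.19 with neither wild type array, and the knockdown change of -0.48 did not (adjusted p = 0.0522). PSME4, a further activator, fell by 0.53 and by 0.46.

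Core and cap were set side by side without a test, since their genes share the same arrays. The core fell in 8 of 14 members in control and 7 of 14 in knockdown cells, with medians of -0.41 and -0.32, against -0.57 and -0.57 in the cap. Without wild type arrays 4 of 14 core and 5 of 17 cap genes were called in control cells, with medians of -0.24 and -0.35. After quantile normalization these counts were 6 and 8, and with array weights 12 and 15. In knockdown cells 3 core and 6 cap genes were called without shRNA2 arrays (medians -0.33 and -0.48), 6 and 11 after quantile normalization, and 8 and 15 with array weights. In the alpha ring the medians were -0.18 and -0.17, and the beta ring medians (-0.57 and -0.55) were near those of the cap. Leaving out the 3 cap chaperones gave cap medians of -0.58 and -0.57. By line, the core median minus the cap median was 0.37 in wild type, 0.21 in scrambled replicate 1 and -0.07 in scrambled replicate 2, a mean of 0.17 ± 0.22 (SD, n = 3). In knockdown cells it was 0.06, 0.17 and 0.38, a mean of 0.20 ± 0.16 (SD, n = 3). Scrambled replicate 2 thus had the reverse order, and the spread between control lines was larger than their mean gap. Duplicates were matched by replicate number, which was not shown to pair samples, so the values by line depend on that matching. The alpha ring median was closer to 0 than the beta ring median in all 6 lines: -0.30 against -0.84 in wild type, -0.08 against -0.44 and -0.21 against -0.44 in the scrambled lines, -0.21 against -0.50 and -0.22 against -0.47 in the shRNA1 lines, and -0.20 against -0.71 in shRNA2.

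**Figure D3:**
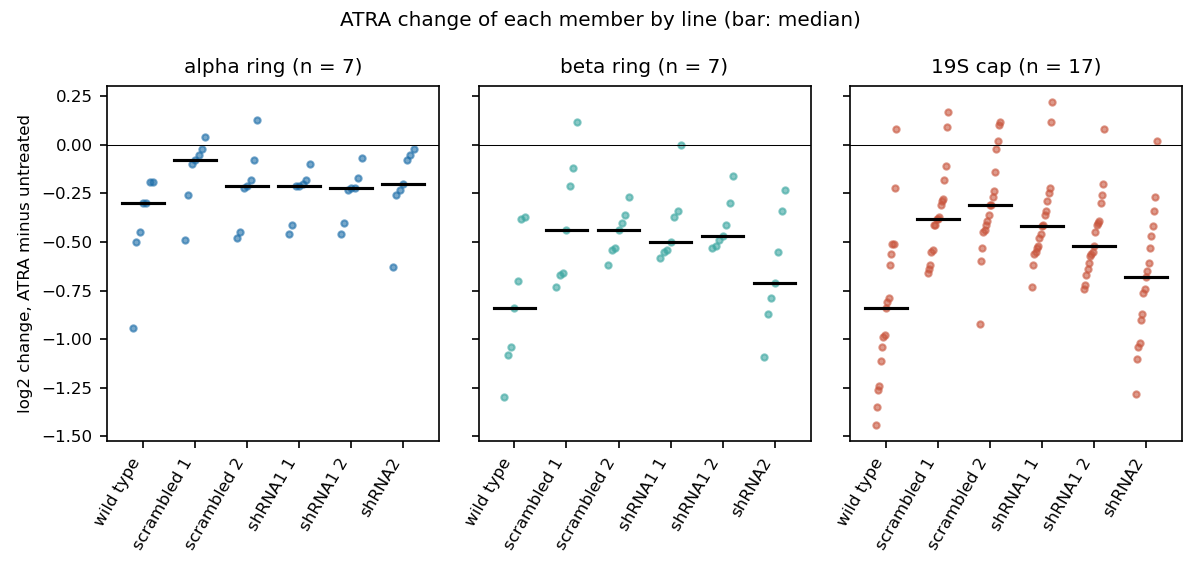
Log2 change under ATRA (vertical axis) of each alpha ring, beta ring and cap member in each of the 6 lines (horizontal axis), with untreated and ATRA arrays matched by line; points are genes and bars medians. Alpha ring medians run from -0.30 to -0.08, and the wild type and shRNA2 lines have the lowest beta ring and cap medians.

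Among the members, those with brighter probe sets had the smaller changes. The mean log2 signal and the ATRA change had a Spearman correlation of 0.53 in control and 0.47 in knockdown cells (n = 34 genes), against -0.30 and -0.12 across all genes. These points share arrays, and probe sets differ in binding, so signal is no measure of mRNA amount between genes. In the brighter 17 members, with a mean of at least 10.84, 9 fell in control and 9 in knockdown cells. In the dimmer 17, 15 and 14 fell. This division at the median member was chosen after the data were seen. Among all genes at least as bright as the dimmest member the shares were 41.7% and 30.0% on the bright side and 41.7% and 28.0% on the dim side. Both rings had genes on each side. PSMA1, PSMA2, PSMA4 and PSMA6 lay on the bright side, as did PSMB2, PSMB3, PSMB4, PSMB6 and PSMB7. PSMA3, PSMA5, PSMA7, PSMB1 and PSMB5 lay on the dim side. The parts of signal and ring in the smaller alpha ring change were not tested.

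**Figure D4:**
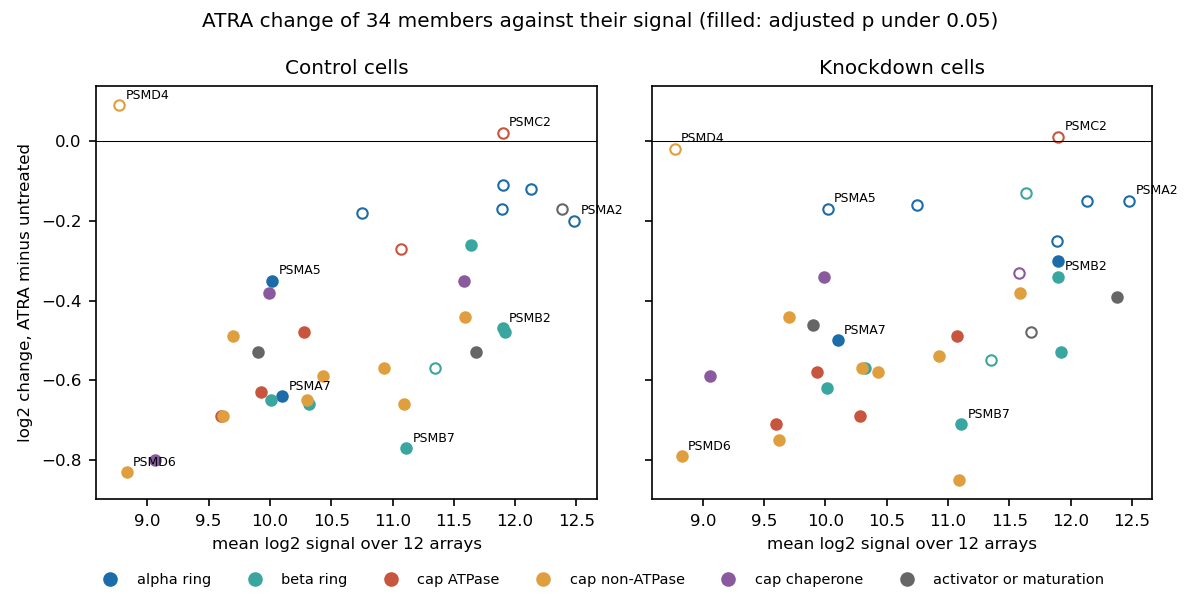
Log2 change under ATRA (vertical axis) against the mean log2 signal over 12 arrays (horizontal axis) for the 34 members, coloured by role; filled points have an adjusted p under 0.05. Most open points lie on the bright side of the median signal of 10.84, with PSMD4, at 8.77, as the dimmest exception.

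HOTAIRM1 knockdown was compared with control cells in each state. Before ATRA 0 of 34 members passed in either direction, as for all genes (0.0% higher and 0.0% lower), and 1 member, PSMD5, had an unadjusted p under 0.05, against 3.95% of all genes. The signs leaned one way, with 29 of 34 values positive (51.2% of all genes), yet the median was only 0.09. The untreated shRNA2 array was the highest of the untreated arrays for 21 of 34 members, against 26.0% of all genes. The part of that array in the lean was not tested. PSMD5 was higher by 0.29 with an adjusted p of 0.999, and it was the 1 member whose untreated knockdown arrays all lay above the controls, as 3.75% of all genes did. Its untreated signals were 10.01, 9.94 and 10.11 in control and 10.16, 10.20 and 10.56 in knockdown cells.

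After ATRA 0 of 34 members passed either, where 0.0543% of all genes were called higher and 0.00543% lower. The median was 0.11, with 26 of 34 values positive (45.3% of all genes), and 7 of 34 members had all knockdown arrays above all control arrays (14.3% of all genes). PSMD5 came nearest, at 9.50, 9.76 and 9.67 in control and 9.94, 9.94 and 10.03 in knockdown cells, a difference of 0.33 (SE 0.11, 95% interval 0.09 to 0.57, adjusted p = 0.0941). PSMD9 followed with 0.30 (95% interval 0.06 to 0.54, adjusted p = 0.113), POMP with -0.22 (-0.41 to -0.04, adjusted p = 0.122) and PSMD12 with 0.24 (0.03 to 0.46, adjusted p = 0.136). These 4 were the members with an unadjusted p under 0.05, against 28.1% of all genes. PSMB5 differed by 0.24 (adjusted p = 0.288) and PSMB4 by 0.12 (adjusted p = 0.300). The median difference was 0.09 in the core and 0.12 in the cap, but 0.02 and 0.01 once the wild type ATRA array was left out, when PSMD5 differed by 0.26 (adjusted p = 0.236).

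**Figure D5:**
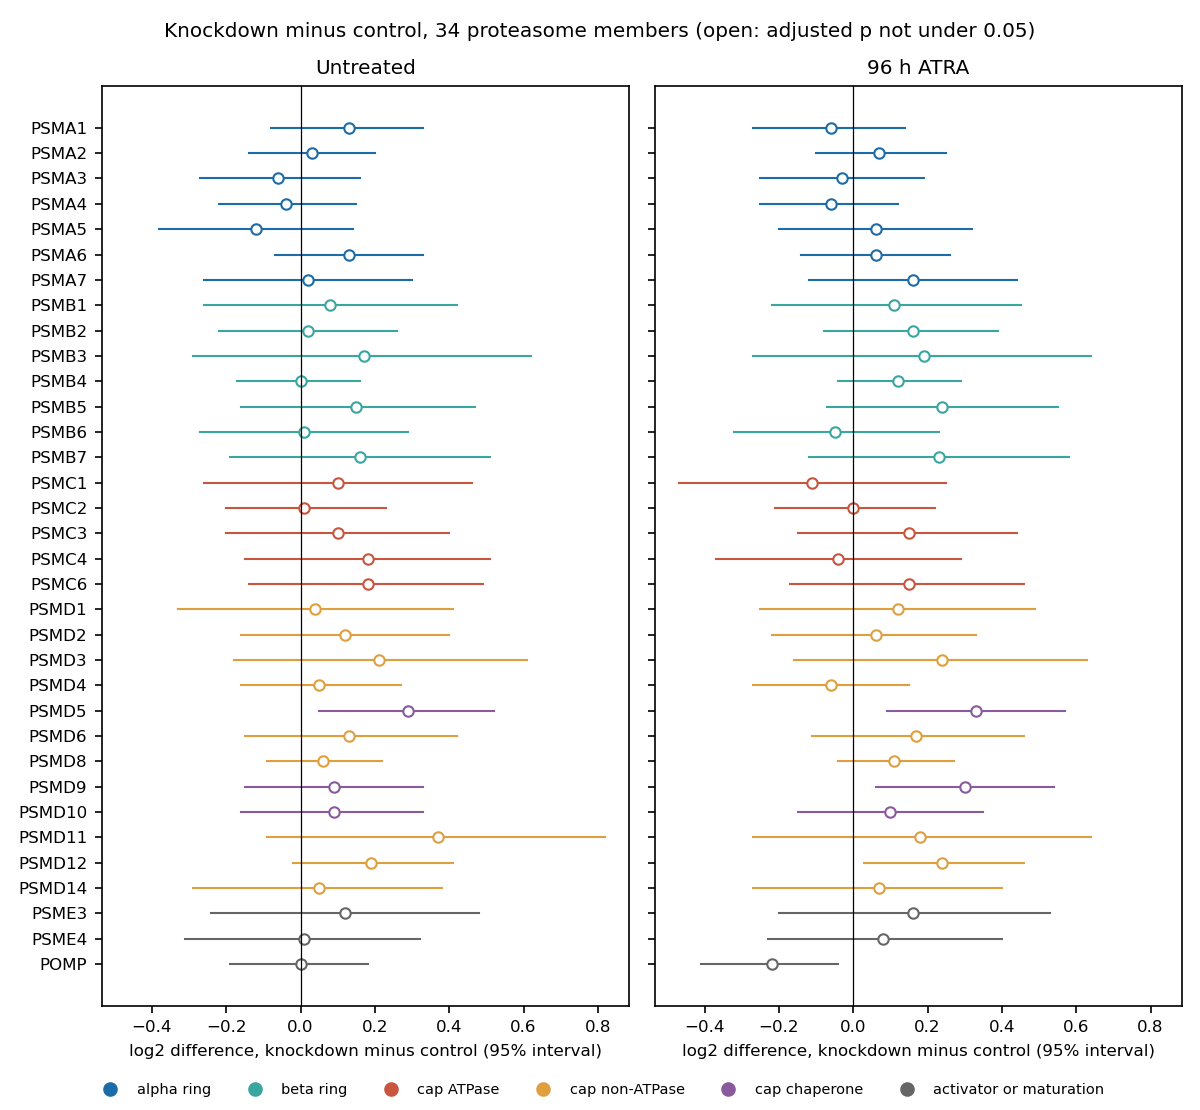
Log2 difference, knockdown minus control (horizontal axis), of each of the 34 members before and after ATRA, with 95% intervals from limma; every point is open, since 0 members passed an adjusted p of 0.05. PSMD5 is the one member whose interval lies above 0 in both panels, and POMP lies below 0 after ATRA.

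The ATRA changes of the 2 kinds of cells were compared directly. 0 of 34 members differed (0.0% of all genes called higher and 0.0% lower), and 0 had an unadjusted p under 0.05, against 15.3% of all genes. The smallest adjusted p were 0.384 for POMP, with a difference of -0.22 (95% interval -0.48 to 0.04), and 0.471 for PSMA1. PSMD9 followed with 0.21 (-0.13 to 0.56, adjusted p = 0.492) and PSMB4 with 0.13 (-0.11 to 0.36, adjusted p = 0.552). These intervals allow differences of the size of the smaller ATRA changes, so the data do not show that the responses are alike.

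Other genes of the pathway, from lists chosen with earlier results of these data known, moved in several directions. Their counts stand beside 20.9% of all genes called lower in control and 14.7% in knockdown cells, and 15.2% and 10.1% called higher. Among genes at least as bright as the dimmest member, 41.7% and 28.4% were called lower. The chaperones PSMG1 to PSMG4, which assemble the core's alpha ring, fell in 4 of 4 cases in control cells (PSMG1 by 0.99, PSMG3 by 0.82, PSMG2 by 0.54, PSMG4 by 0.27) and in 1 of 4 in knockdown cells (PSMG1 by 0.95). Without the wild type ATRA array PSMG2 (-0.32) and PSMG4 (-0.29) did not pass in control cells (adjusted p = 0.0999 and 0.0572). With neither wild type array PSMG3 (-0.81) did not pass either (adjusted p = 0.0631). Of 9 proteins that associate with the cap, 8 fell in control cells, those with the smallest p being the deubiquitinase UCHL5 (-0.84), the adaptor ECPAS (-0.78), the assembly chaperone PAAF1 (-0.64) and the ubiquitin receptor ADRM1 (-0.41). USP14 (-0.34), TXNL1 (-0.33), UBE3C (-0.24) and SEM1 (-0.22) did not pass in control cells without the wild type ATRA array (adjusted p = 0.169, 0.108, 0.0701 and 0.061). With neither wild type array ADRM1 (-0.31) did not pass there either (adjusted p = 0.059). In knockdown cells 3 of these 9 fell, namely UCHL5 (-0.69), ECPAS (-0.55) and ADRM1 (-0.43). Without shRNA2 arrays ECPAS (-0.32) and ADRM1 (-0.38) did not pass there (adjusted p = 0.0525 and 0.0537). With all arrays PAAF1 changed by -0.27 in knockdown cells (adjusted p = 0.0868), and its difference of 0.37 between the responses did not pass (adjusted p = 0.301).

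The inducible subunits went the other way. PSMB9, which takes the place of PSMB6 in immunoproteasomes, rose by 1.28 in control (SE 0.32, adjusted p = 0.0098) and by 1.95 in knockdown cells (SE 0.32, adjusted p = 0.0014). Its control signals were 8.88, 8.45 and 9.88 before and 10.24, 10.71 and 10.11 after ATRA, with untreated scrambled replicate 2 the highest untreated array. PSMB8 and PSMB10, which replace PSMB5 and PSMB7, rose in knockdown cells by 0.84 and 0.86, while their control values of 0.36 and 0.34 did not pass (adjusted p = 0.189 and 0.284). Without that untreated array the control changes were 1.69 for PSMB9 (adjusted p = 0.000456), 0.55 for PSMB8 (adjusted p = 0.062) and 0.70 for PSMB10, which then passed (adjusted p = 0.00165). Without shRNA2 arrays the knockdown changes of PSMB8 and PSMB10 were 0.59 and 0.72 and did not pass (adjusted p = 0.128 and 0.169). PSME2, part of the interferon-induced activator, rose by 0.65 and 0.63, and the inhibitor PSMF1 fell by 0.19 in both. Without wild type arrays PSMB9 (1.24), PSME2 (0.78) and PSMF1 (-0.15) did not pass in control cells (adjusted p = 0.0697, 0.0559 and 0.219). PSME2 (0.58) and PSMF1 (-0.19) did not pass in knockdown cells without shRNA2 arrays (adjusted p = 0.211 and 0.17), while PSMB9 (1.64) did (adjusted p = 0.028). With all arrays the list of 6 had 2 rises and 1 fall in control cells, and 4 rises and 1 fall in knockdown cells. The differences between the responses did not pass (PSMB9 0.67, adjusted p = 0.468).

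Regulators of proteasome genes were mixed. NFE2L2, a factor that binds the antioxidant response element, rose by 0.62 in control cells (adjusted p = 0.0056) and changed by 0.19 in knockdown cells (adjusted p = 0.405). Its control change did not pass without wild type arrays (0.56, adjusted p = 0.0543). Its knockdown change passed without shRNA2 arrays (0.42, adjusted p = 0.0464). AKIRIN2, which brings proteasomes into the nucleus, rose by 0.41 in control and 0.44 in knockdown cells. NGLY1, an enzyme that processes NFE2L1, fell by 0.44 and by 0.40, and NFE2L1 itself changed by -0.10 and 0.07 without passing. Without the wild type ATRA array AKIRIN2 (0.32) and NGLY1 (-0.36) did not pass in control cells (adjusted p = 0.083 and 0.0549). Nor did AKIRIN2 (0.35) and NGLY1 (-0.25) pass in knockdown cells without shRNA2 arrays (adjusted p = 0.147 and 0.261). IPO9, the import receptor that works with AKIRIN2, fell by 0.48 in control cells (SE 0.06, adjusted p = 0.000228) and changed by -0.08 in knockdown cells, with a difference of 0.39 (adjusted p = 0.271). DDI2 was not analysed here. Of 3 measured genes of ubiquitin supply, the activating enzyme UBA1 fell in control cells (-0.28), and 0 passed in knockdown cells. Of 8 measured shuttle factors and VCP partners, 4 fell in control cells, UFD1 (-0.52), RAD23B (-0.42), VCP (-0.34) and BAG6 (-0.30), and in knockdown cells 4 fell and 1 rose. The 4 of 8 in control cells lay near the 41.7% called lower among genes at least as bright as the dimmest member. UBA1, RAD23B and VCP did not pass in control cells without the wild type ATRA array (adjusted p = 0.0609, 0.101 and 0.0752). With neither wild type array BAG6 (-0.25) did not pass either (adjusted p = 0.0735). In knockdown cells all 8 shuttle factors and VCP partners failed to pass without shRNA2 arrays, with adjusted p of 0.0674 or more.

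Genes outside the pathway fell as well. All 8 subunits of the chaperonin that folds actin and tubulin, chosen as another large housekeeping complex, fell in both kinds of cells. Their medians were -0.94 and -0.84, against -0.49 and -0.49 for the proteasome members. Those of smallest p in control cells were CCT4 (-1.04), CCT7 (-0.89), CCT3 (-1.04) and CCT2 (-1.19). CCT8 did not pass in control cells without wild type arrays (-0.42, adjusted p = 0.11) or in knockdown cells without shRNA2 arrays (-0.47, adjusted p = 0.209). Of 5 proliferation genes 4 fell in each kind of cells, MCM2 by 1.10, PCNA by 1.01, CCNB1 by 0.90 and MKI67 by 0.50 in control cells. The medians of the 5 were -0.9 in control and -0.49 in knockdown cells. MKI67 did not pass in control cells without wild type arrays (adjusted p = 0.0806) or without untreated scrambled replicate 2 (0.0568). In knockdown cells without shRNA2 arrays MKI67, TOP2A and PCNA did not pass (adjusted p = 0.126, 0.16 and 0.0695). The part of the proliferation genes in the proteasome result was not tested. Of the markers of other cell types, EPCAM fell (from 7.97 to 8.18 on untreated control arrays to 7.03 to 7.29 with ATRA), COL1A1 rose by 0.26 in control cells, and CD3E, MS4A1 and HBB did not pass.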

How the data were processed

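Biotin-labelled cDNA from total RNA was read on Affymetrix ST arrays, per the labels' protocols. The authors deposited log2 signals, for which the submitters' processing notes name RMA and limma without a version or setting. These log2 signals spanned 2.67 to 14.63 (array medians 7.73 to 7.81) and were used unchanged.

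Of 32321 probe sets, 19158 had 1 gene in the platform annotation, 1388 had several and 11775 were not listed. For 637 genes with more than 1 probe set the brightest was kept, which left 18404 genes. The tests used lmFit and eBayes of limma 3.58.1 in R 4.3.3 on 4 group means, with 8 residual degrees of freedom, two-sided p values, Benjamini-Hochberg adjustment over all genes and a threshold of 0.05. With 3 arrays a group, an exact permutation p has a floor of 0.1. The script was tested on simulated data.

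The members and lists were chosen with earlier results of these data known. Given in full were the catalytic subunits, the largest and smallest control change of each role, and the smallest p between kinds of cells, with up to 4 genes per pathway list. Alternatives were array scaling, weights, filters, probe set rules, a replicate block and left-out arrays. Promoter windows were searched for the motifs on both strands.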

Additional observations from a re-analysis of the deposited data

How the results depend on the processing

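The alternatives changed how many members passed more than which way they moved. The number of all genes called lower in control cells also changed, from 3844 to 2477 without wild type arrays, a smaller share than the members lost. In control cells 24 members were called lower, 14 after quantile normalization, 26 after median centring, 29 with array weights, 9 without wild type arrays, and 15 to 24 when 1 array was left out. In knockdown cells 23 were called lower, 19 after quantile normalization, 24 after median centring, 26 with array weights, 10 without shRNA2 arrays, and 12 to 26 when 1 array was left out. The control core median of -0.41 was -0.24 without wild type arrays and -0.42 to -0.30 with 1 array left out. The knockdown core median of -0.32 was -0.28 after quantile normalization and -0.35 to -0.30 with 1 array left out. The sign turned for 2 members near 0. PSMC2 in control cells was -0.01 after median centring, -0.06 with array weights and -0.04 to 0.09 with 1 array left out. In knockdown cells PSMC2 was -0.0 after median centring and -0.06 to 0.08 with 1 array left out. PSMD4 in knockdown cells was 0.03 with array weights, 0.10 without shRNA2 arrays and -0.13 to 0.09 with 1 array left out. The causes were not tested.

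With the replicate block 20 and 19 members were called lower. Arrays of 1 line did not deviate together in all cases (correlations from -0.173 to 0.226), so the numbers are not taken to pair samples. Knockdown against control and the difference between responses had 0 calls under every alternative run. The second probe set of PSMC6 was added after the data were seen and kept both calls. The 3 arrays a group limit all values.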
